A study of Mus musculus with 15 samples.

Results

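A set of 10 Polycomb and histone demethylase genes, of the 22180 genes that the arrays named, is described here in sorted thalamic cells of mouse embryos. They are Ezh1, Ezh2, Eed and Suz12, which encode the core of Polycomb repressive complex 2 (PRC2), and the histone demethylases Kdm7a, Phf8, Kdm6b and Kdm1a. With them go Phf21a, a reader protein of the Kdm1a complex, and its relative Phf21b, which are not demethylases. The set was chosen by measured values of these arrays, since the signals of Ezh2, Kdm7a and Phf21b were lower at the later of 2 stages. Differences between the stages are therefore given for the 10 genes as a description without a test. Each gene was read from the array row that named it alone, or from the brighter of 2 such rows for Kdm6b, and all 10 passed the filter on low signals.

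RNA was measured on 15 Affymetrix arrays, 3 biological replicates in each of 5 groups sorted by fluorescence. The groups were double-labelled, red and green cells of E18.5 embryos and red and green cells of E14.5 embryos. All groups shared 1 genotype, Gbx2CreER-IRES-EGFP/+::R26lsl-tdTomato/+, on a c57/BL6 background. Each embryo thus carried 1 modified copy of Gbx2, with EGFP and a tamoxifen-inducible Cre expressed from that locus, and a tdTomato reporter at Rosa26 that Cre switches on. The dams had received 4 mg tamoxifen, at E9 for every E18.5 group and at E9.5 for every E14.5 group, so that stage and day of tamoxifen cannot be told apart. Green marks cells that use the Gbx2 locus, and red marks cells whose ancestors, or which themselves, had switched on the reporter. Neither sorting gates nor the number of embryos pooled per array is given in the sources used here. Double-labelled cells form a group only at E18.5, and whether the E14.5 red and green groups hold such cells cannot be told. Red or green cells of the stages may thus differ in what was sorted.

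PRC2 places a repressive methyl mark on histone H3. Ezh2 or Ezh1 is its catalytic subunit, Eed reads the mark and stimulates the enzyme, and Suz12 holds the complex together. In many tissues Ezh2 is the form of dividing progenitors and Ezh1 that of cells that have left the cycle. Kdm6b removes the PRC2 mark, and Kdm7a and Phf8 are related enzymes that remove repressive methyl marks. Kdm1a removes an activating mark as part of the CoREST complex, to which Phf21a also belongs. In developing brain these enzymes are known for setting when progenitor genes are shut off and neuronal genes come on.

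The start regions of 4 of the genes are printed because 3 of them (Ezh2, Kdm7a and Phf21b) defined the set and because Ezh1 is the alternative to Ezh2 in the complex. The sequences are from RefSeq, assembly GRCm38.p6, and each runs 5′ to 3′ along the gene's own strand, from 250 bases before the annotated start to 50 after it. All 4 genes lie on the minus strand, at chr6:47594981-47595280 (Ezh2), chr11:101226414-101226713 (Ezh1), chr6:39206724-39207023 (Kdm7a) and chr15:84855050-84855349 (Phf21b). Capitals mark 2 motifs searched on both strands, the E2F letters TTTCGCGC or TTTGGCGC and the letters CCAAT, which do not overlap each other here.
Ezh2: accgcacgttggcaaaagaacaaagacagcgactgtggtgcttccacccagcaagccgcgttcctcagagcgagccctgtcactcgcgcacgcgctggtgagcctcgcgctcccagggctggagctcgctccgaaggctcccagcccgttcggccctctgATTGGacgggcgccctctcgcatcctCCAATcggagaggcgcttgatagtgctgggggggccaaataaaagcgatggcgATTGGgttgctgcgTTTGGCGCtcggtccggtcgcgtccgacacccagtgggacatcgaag
Ezh1: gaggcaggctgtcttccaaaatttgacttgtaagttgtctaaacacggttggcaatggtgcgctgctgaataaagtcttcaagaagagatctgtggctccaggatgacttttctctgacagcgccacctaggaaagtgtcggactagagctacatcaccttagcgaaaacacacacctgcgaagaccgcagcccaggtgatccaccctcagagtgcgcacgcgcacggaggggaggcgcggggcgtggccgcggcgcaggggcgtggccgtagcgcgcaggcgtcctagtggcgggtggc
Kdm7a: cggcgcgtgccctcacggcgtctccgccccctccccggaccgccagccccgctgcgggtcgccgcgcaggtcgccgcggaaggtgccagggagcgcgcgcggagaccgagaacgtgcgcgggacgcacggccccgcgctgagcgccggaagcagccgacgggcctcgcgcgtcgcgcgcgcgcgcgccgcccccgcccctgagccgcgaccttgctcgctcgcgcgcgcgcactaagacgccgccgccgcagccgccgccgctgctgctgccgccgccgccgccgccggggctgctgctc
Phf21b: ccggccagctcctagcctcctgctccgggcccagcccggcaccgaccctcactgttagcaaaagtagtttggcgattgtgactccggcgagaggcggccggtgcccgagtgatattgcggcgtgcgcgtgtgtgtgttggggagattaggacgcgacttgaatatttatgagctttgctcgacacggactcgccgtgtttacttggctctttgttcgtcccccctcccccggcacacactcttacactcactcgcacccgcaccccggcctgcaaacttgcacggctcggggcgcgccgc

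The Ezh2 window held 1 match to the E2F letters and CCAAT at 3 places, while the windows of Ezh1, Kdm7a and Phf21b held no match to either. Of 32851 windows of the same length in the table, 0.813% held the E2F letters, 37.4% held CCAAT and 3.37% held CCAAT at 3 or more places. The Kdm7a window stood out by composition, with 82.7% G and C and 65 CG dinucleotides, against medians of 52.7% and 7 over all windows. The other windows printed had 64.3% (Ezh2), 63.0% (Phf21b) and 59.3% (Ezh1) G and C. These matches describe letters, and no binding was measured.

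Levels below are log2 signals after quantile normalization of the 15 arrays, given as mean ± SD of 3 arrays. As deposited, the stages were not on 1 scale. The mean of all values was 6.17 to 6.19 on the 9 E18.5 arrays and 5.63 to 5.65 on the 6 E14.5 arrays, and the median gene was higher at E18.5 by 0.59 in red and 0.60 in green cells. After quantile normalization the median difference was -0.034 in red and -0.030 in green cells. Stage differences are therefore relative to that of the median gene, and the deposited values are given where they change a direction. The labels do not say whether the stages were normalized separately. Stage and any separate processing of the arrays thus cannot be told apart for single genes. Replicate 1 of the E18.5 red cells and of the double-labelled cells, called the narrow-range arrays, had SDs over all values of 1.34 and 1.31, against 1.44 to 1.51 on the other 7 E18.5 arrays. Their mean correlations with their group mates were 0.937 and 0.940, against 0.950 to 0.985 on the other E18.5 arrays and 0.984 to 0.992 at E14.5. Thalamic markers were present in every group, among them Tcf7l2, with group means of 11.41 to 11.84, and the glutamate transporter Slc17a6, with 9.87 to 10.28. Gbx2 itself averaged 6.09 in E18.5 red cells, where the arrays spread over 5.23 to 6.90, and 7.69 to 8.40 in the other 4 groups.

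Ezh2, in many tissues the PRC2 enzyme of dividing cells, was the member of the core complex whose level differed most between stages. On replicates 1 to 3 it read 7.43, 7.23 and 7.44 in E18.5 double-labelled cells, 7.72, 7.40 and 7.13 in E18.5 red cells and 7.66, 7.77 and 7.70 in E18.5 green cells. At E14.5 it read 9.24, 9.25 and 9.21 in red and 9.52, 9.61 and 9.45 in green cells. All 9 E18.5 arrays lay below all 6 E14.5 arrays, and the closest pair of group means across the stages was 1.53 apart. The level was 3.52-fold lower at E18.5 in red cells (log2 difference -1.82) and 3.53-fold lower in green cells (-1.82). Ezh2 was also lower as deposited, by -1.22 in both colours. Since bulk RNA was measured, fewer cells with Ezh2 and less Ezh2 RNA per cell cannot be told apart.

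Ezh1, the other catalytic subunit, did not share that pattern. Its arrays read 7.55, 7.26 and 7.19 in E18.5 double-labelled cells, 6.97, 7.34 and 7.04 in E18.5 red cells and 7.21, 7.16 and 7.10 in E18.5 green cells, with 7.21, 7.03 and 7.06 in E14.5 red cells. E14.5 green cells stood below all of these, at 6.58, 6.51 and 6.63. The stage difference was 0.58 in green cells, where the groups did not overlap, and 0.018 in red cells, where they did. As deposited, both were larger, at 1.29 and 0.65.

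Eed and Suz12, the non-catalytic core, varied less. Eed averaged 6.84 ± 0.34, 6.99 ± 0.12 and 7.11 ± 0.16 in E18.5 double-labelled, red and green cells and 7.57 ± 0.09 and 7.67 ± 0.03 in E14.5 red and green cells. Its stage differences of -0.57 in red and -0.56 in green cells were no larger than the shift between scales, and as deposited they turned to 0.064 and 0.094. Suz12 averaged 7.44 ± 0.35, 7.29 ± 0.40 and 7.73 ± 0.13 at E18.5 in the same order and 7.56 ± 0.07 and 7.77 ± 0.10 at E14.5. Its groups overlapped between stages in both colours, with differences of -0.27 in red and -0.040 in green cells, which turned to 0.37 and 0.62 as deposited. The low Suz12 values were those of the narrow-range arrays, 6.83 in red and 7.06 in double-labelled cells, and without them the red difference was -0.048. The lowest Eed value, 6.44, was also on the narrow-range double-labelled array.

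**Figure D1:**
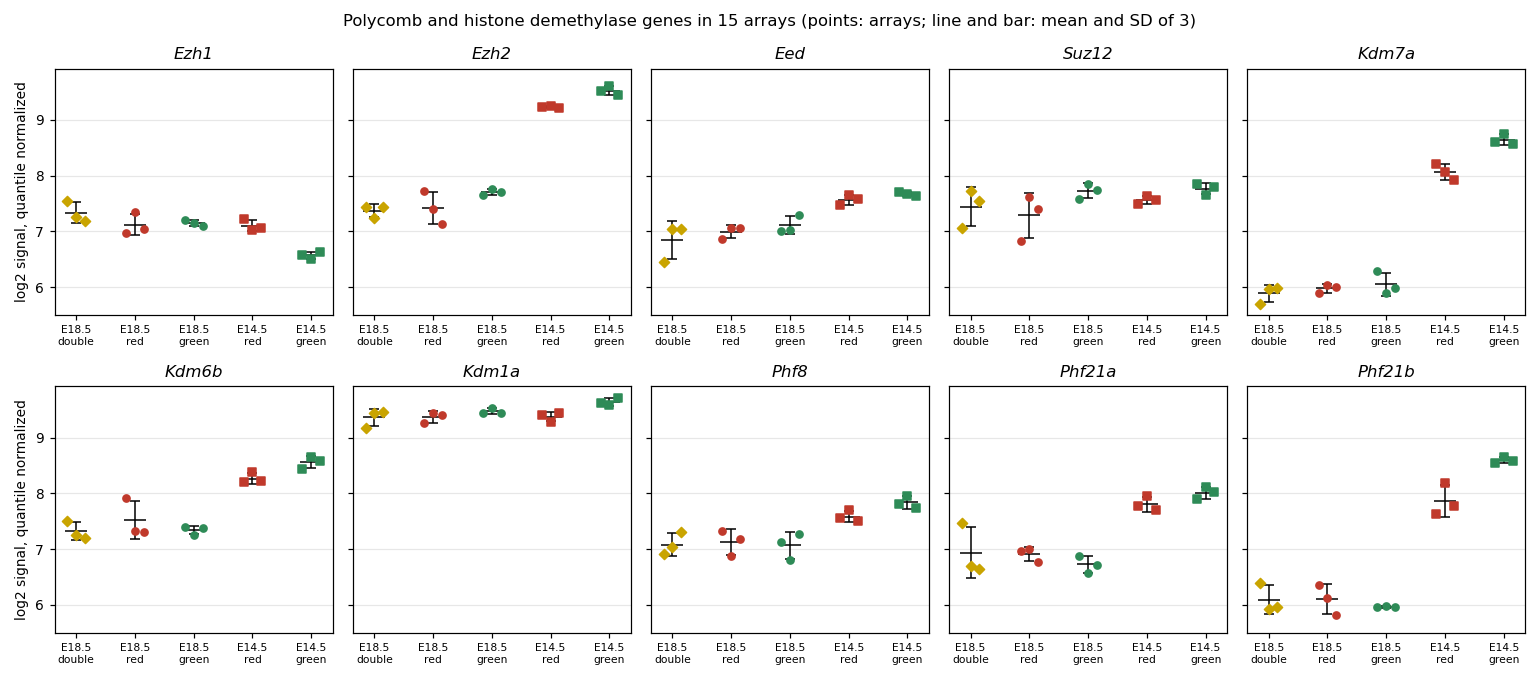
Log2 signal (y axis, quantile normalized) of the 10 genes on 15 arrays, by group (x axis). Points are arrays, lines and bars are the mean and SD of 3. Ezh2, Kdm7a and Phf21b separate the stages, with all E18.5 arrays below all E14.5 arrays, while Kdm1a and Suz12 overlap between stages in red cells.

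Kdm7a, a demethylase that reads active chromatin and removes repressive marks, had the largest stage difference in red cells among the 10 genes. It read 5.70, 5.97 and 5.99 in E18.5 double-labelled cells, 5.89, 6.04 and 6.00 in E18.5 red cells and 6.29, 5.89 and 5.98 in E18.5 green cells. At E14.5 it read 8.22, 8.07 and 7.93 in red and 8.60, 8.75 and 8.57 in green cells. The level was 4.27-fold lower at E18.5 in red cells (-2.09) and 6.01-fold lower in green cells (-2.59), and the gap between the highest E18.5 array and the lowest E14.5 array was 1.89 in red and 2.28 in green cells. As deposited the differences were -1.40 and -2.01.

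Phf8, its X-linked relative, averaged 7.08 ± 0.21, 7.13 ± 0.23 and 7.07 ± 0.24 in E18.5 double-labelled, red and green cells and 7.59 ± 0.10 and 7.84 ± 0.11 in E14.5 red and green cells. The groups of the stages did not overlap, with differences of -0.45 in red and -0.77 in green cells. As deposited the red difference turned to 0.15, and the green one was -0.12. Kdm6b, the demethylase that opposes PRC2, averaged 7.32 ± 0.16, 7.52 ± 0.35 and 7.34 ± 0.07 at E18.5 in the same order and 8.27 ± 0.10 and 8.56 ± 0.11 at E14.5. It was lower at E18.5 by -0.75 in red and -1.21 in green cells, and by -0.16 and -0.58 as deposited. The highest E18.5 value, 7.92, was on the narrow-range red array, without which the red difference was -0.95. The dimmer row of Kdm6b ran the same way, with group means of 5.75 to 5.84 at E18.5 and 6.54 and 6.78 at E14.5.

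Phf21b, the relative of the CoREST subunit Phf21a, was also lower at E18.5 in both colours. It read 6.39, 5.92 and 5.96 in E18.5 double-labelled cells, 6.36, 6.13 and 5.82 in E18.5 red cells and 5.97, 5.99 and 5.95 in E18.5 green cells. At E14.5 it read 7.64, 8.19 and 7.77 in red and 8.55, 8.66 and 8.58 in green cells. The level was 3.40-fold lower at E18.5 in red cells (-1.76) and 6.17-fold lower in green cells (-2.63), the widest of the 10 in green cells. The highest E18.5 arrays were the 2 narrow-range ones, and without them the red difference was -1.89. As deposited the differences were -1.11 and -2.06.

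Phf21a and Kdm1a, partners in one complex, differed in pattern. Phf21a averaged 6.94 ± 0.46, 6.91 ± 0.12 and 6.73 ± 0.15 in E18.5 double-labelled, red and green cells and 7.81 ± 0.13 and 8.02 ± 0.11 in E14.5 red and green cells, with stage differences of -0.90 and -1.29. Its wide spread in double-labelled cells came from the narrow-range array, at 7.47 against 6.70 and 6.65 on the others. Kdm1a, the demethylase itself, was nearly level, with 9.36 ± 0.16, 9.37 ± 0.10 and 9.47 ± 0.05 at E18.5 in the same order and 9.38 ± 0.09 and 9.64 ± 0.07 at E14.5. Its red groups overlapped between stages (-0.0077), and its green difference was -0.17. As deposited these turned to 0.53 and 0.44.

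After quantile normalization 9 of the 10 genes had lower means at E18.5 in both colours, and as deposited 5 did, namely Ezh2, Kdm7a, Phf21b, Phf21a and Kdm6b. Groups did not overlap, with E18.5 lower, for 7 genes in red cells (22.2% of the 16635 genes tested) and 8 in green cells (32.5%), and Ezh1 alone did so with E18.5 higher in green cells (27.6%). A difference of at least 2-fold downwards was reached by Ezh2, Kdm7a and Phf21b in red cells (1.33% of genes tested) and by these with Kdm6b and Phf21a in green cells (2.61%). The median of the 10 differences was -0.66 in red and -0.99 in green cells, against -0.034 and -0.030 over all genes tested. The stage contrast chose the genes, so nothing is read from these counts or medians.

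**Figure D2:**
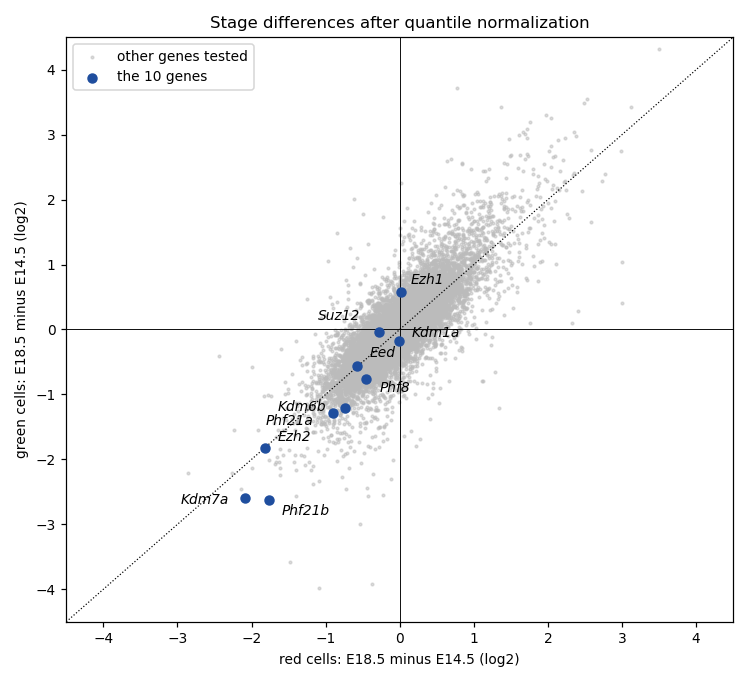
Log2 difference E18.5 minus E14.5 after quantile normalization in red cells (x axis) and green cells (y axis). Grey points are the other genes tested, blue points the 10 genes, and the dotted line marks equal differences. Kdm7a and Phf21b lie at the lower left below the line, Ezh2 on it, and Kdm1a and Suz12 near the origin.

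Red and green cells were compared within E14.5, and 3 of the 10 differed. The rule that chose the genes did not use this contrast, but the contrast shares its arrays with the stage differences that chose Kdm7a and Phf21b. Ezh1 was 1.44-fold higher in red than in green cells, at 7.10 ± 0.10 against 6.57 ± 0.06 (log2 difference 0.53, SE 0.12, limma adjusted p 0.0194). Kdm7a was 1.48-fold lower in red cells, at 8.07 ± 0.14 against 8.64 ± 0.10 (-0.57, SE 0.12, limma adjusted p 0.0172). Phf21b was 1.66-fold lower, at 7.87 ± 0.29 against 8.60 ± 0.05 (-0.73, SE 0.16, limma adjusted p 0.0215). Over all genes tested 3.91% passed in this comparison. The p-values measure the spread between arrays that the labels call biological replicates, with same-numbered red and green arrays treated as independent.

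The 7 other genes had lower means in E14.5 red than green cells and did not pass. Ezh2 read -0.29 (95% interval -0.56 to -0.023, limma adjusted p 0.325) and Kdm1a -0.27 (-0.48 to -0.053, limma adjusted p 0.218), and for both the red and green arrays did not overlap. Kdm6b (-0.29), Phf8 (-0.25), Suz12 (-0.21), Phf21a (-0.21) and Eed (-0.10) had intervals that reached 0.029 to 0.21 above 0. In all, red and green arrays did not overlap for 7 genes with red lower, against 14.4% of genes tested, and for Ezh1 with red higher, against 13.1%. The median of the 10 differences was -0.26, against -0.0081 for all genes tested.

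The 3 calls rested on 3 arrays a group. Ezh1 passed only without red replicate 3 (limma adjusted p 0.0471), and otherwise had adjusted p of 0.1013, 0.0503, 0.0544, 0.1005 and 0.0617 without red replicates 1 and 2 and green replicates 1, 2 and 3. Kdm7a passed without red replicate 1 (0.0275) or green replicate 1 (0.0409), and had 0.0671, 0.0772, 0.1005 and 0.0530 without red replicates 2 and 3 and green replicates 2 and 3. Phf21b passed only without red replicate 2 (0.0117), and had 0.118, 0.0809, 0.0521, 0.1005 and 0.0848 without red replicates 1 and 3 and green replicates 1, 2 and 3. The log2 differences stayed between 0.47 and 0.56 for Ezh1, between -0.64 and -0.50 for Kdm7a and between -0.89 and -0.61 for Phf21b. The fit shares 1 estimate of the spread over all groups. Without the narrow-range arrays, which are of the other stage, Kdm1a also passed (limma adjusted p 0.0492). Kdm6b (0.05205) and Ezh2 (0.0678) then came near the threshold, while the others that had not passed stayed at 0.249 or above.

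Other markers moved with this comparison. Of 22 cell cycle genes tested, 9 fell in E14.5 red cells and none rose, among them the topoisomerase Top2a (-1.94, limma adjusted p 3.5e-05), the mitotic kinase Cdk1 (-1.25, 3.5e-05), the mitotic kinesin Kif11 (-0.92, 3.7e-04) and the proliferation marker Mki67 (-1.17, 9.9e-04). The mean level of that list was 5.94 to 6.06 on red arrays and 6.42 to 6.59 on green arrays. Of 12 pan-neuronal genes 5 rose in red cells, and the list's mean level was 9.72 to 9.75 on red and 9.27 to 9.48 on green arrays. Of 14 progenitor genes Slc1a3 rose (1.08), a glutamate transporter of radial glia, and Prom1 (-0.93) and the filament gene Nes (-0.50) fell. Nes was lost without any one of the red arrays or without green replicate 2 or 3 (limma adjusted p up to 0.115). The embryonic globin Hbb-y, 1 of 2 erythroid genes measured, rose in red cells (1.44, limma adjusted p 3.7e-04), with that list at 6.06 to 6.47 on red and 5.30 to 5.39 on green arrays. The part of dividing cells, neurons or blood cells in the 3 calls was not tested.

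Among the astrocyte genes only Slc1a2, of 7 tested, differed (-0.71). Of the oligodendrocyte (6), microglial (8), endothelial and pericyte (7) and meningeal (3) genes none passed between E14.5 red and green cells by limma. Of them 0, 1, 1 and 0 had an unadjusted p under 0.05. The smallest limma adjusted p in these lists was 0.0521, for an endothelial or pericyte gene. Of 10 thalamic genes Rora (1.06) and Prox1 (0.92) rose in E14.5 red cells and Lhx9 (-0.82) fell. None of 4 sex-linked genes passed by limma, and none had an unadjusted p under 0.05. In replicate 2 of both E14.5 colours Xist, expressed from the inactive X chromosome, read 5.74 in red and 5.08 in green cells, against 10.30 to 11.13 on the other E14.5 arrays. The E18.5 arrays read 9.23 to 9.83. Phf8, which is X-linked, read 7.70 in red and 7.96 in green cells in that replicate, the highest array of each group. The same held for Ezh2, Kdm6b, Phf21a and Phf21b, so it is not particular to Phf8.

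**Figure D3:**
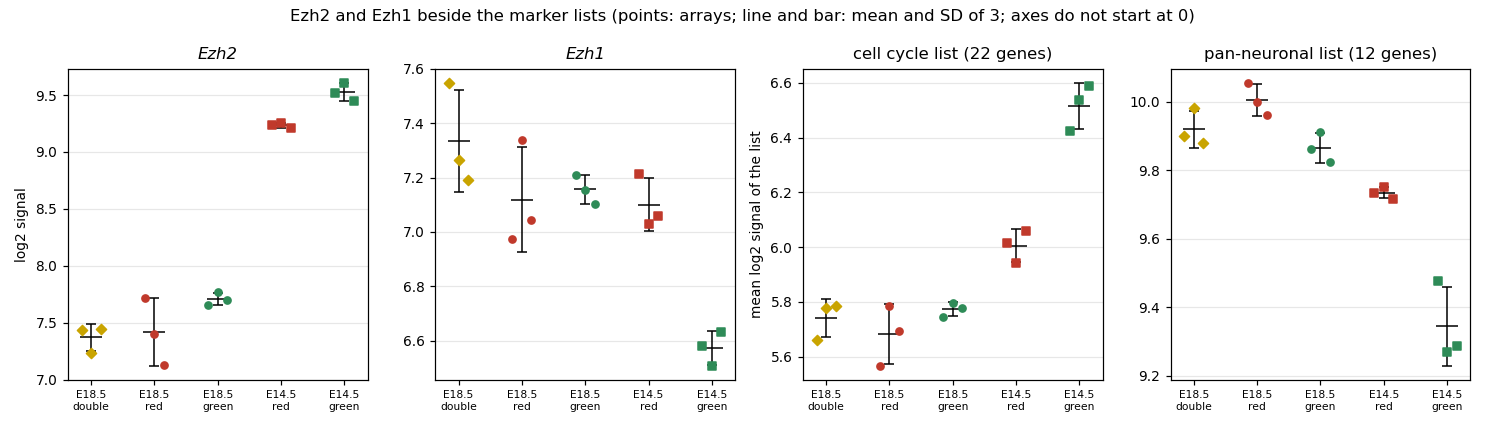
Log2 signal of Ezh2 and Ezh1 and mean log2 signal of the cell cycle and pan-neuronal lists (y axes, which do not start at 0) by group (x axis). Points are arrays, lines and bars the mean and SD of 3. E14.5 green cells are highest for Ezh2 and the cell cycle list and lowest for Ezh1 and the pan-neuronal list.

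At E18.5 none of the 10 genes passed between populations. In red against green cells, 0.872% of genes tested passed and 2 members had an unadjusted p under 0.05, against 9.51% of all genes. These were Ezh2 (-0.29, 95% interval -0.56 to -0.021, limma adjusted p 0.481) and Suz12 (-0.44, -0.85 to -0.034, limma adjusted p 0.479). Without the narrow-range arrays Ezh2 read -0.44 (limma adjusted p 0.0586) and Suz12 -0.21 (0.551). In double-labelled against green cells 0.024% of genes passed, and Ezh2 alone had an unadjusted p under 0.05 (6.06% of all genes) and arrays that did not overlap, at 7.37 ± 0.12 against 7.71 ± 0.05 (-0.34, limma adjusted p 0.715, 5.01% of genes not overlapping with double-labelled lower). In double-labelled against red cells 0.12% of genes passed, and no member had an unadjusted p under 0.05, against 6.14% of all genes. That fit leaves out the pairing of these arrays seen in the data. With a replicate block 28 genes and no member passed. Over these 3 comparisons the 95% intervals of single comparisons ran from -0.85 to 0.60.

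**Figure D4:**
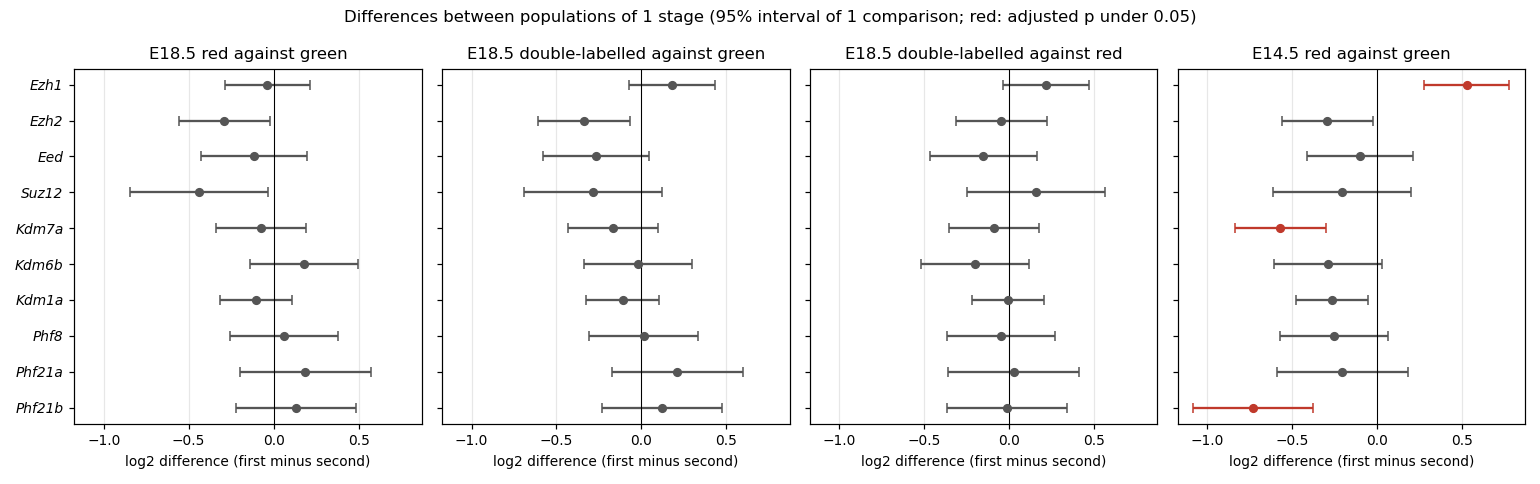
Log2 differences of the 10 genes between populations of 1 stage (x axis, first population minus second), with 95% intervals of single comparisons. Red marks an adjusted p under 0.05. Ezh1, Kdm7a and Phf21b at E14.5 are the 3 that passed, and every E18.5 interval lies between -0.85 and 0.60.

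Whether the red-green difference depended on stage was tested directly. Without a replicate block no member passed, against 1.19% of genes tested, and 4 members had an unadjusted p under 0.05, against 9.34%. The difference E18.5 minus E14.5 was 0.86 for Phf21b (95% interval 0.36 to 1.36, limma adjusted p 0.117), -0.56 for Ezh1 (-0.92 to -0.21, limma adjusted p 0.160), 0.49 for Kdm7a (0.12 to 0.87, limma adjusted p 0.291) and 0.47 for Kdm6b (0.020 to 0.92, limma adjusted p 0.497). For Ezh2 it was 0.0025, with an interval of -0.38 to 0.38. The red-green difference in Ezh2 read -0.29 at both stages.

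Related chromatin genes were set beside the 10 genes in 6 lists, with 81 genes tested of 90 listed. In E14.5 red against green cells 2 of the 81 passed, or 2.47%, against 3.91% of all genes tested. They were Rcor2, a CoREST scaffold, which fell in red cells (7.38 ± 0.18 against 8.17 ± 0.12, -0.79, limma adjusted p 0.0037), and Foxk1, a forkhead partner of the H2A deubiquitinase, which rose (8.08 ± 0.15 against 7.48 ± 0.10, 0.60, limma adjusted p 0.0162). Rcor2 passed without any one array, while Foxk1 was lost without red replicate 1 (adjusted p 0.0892) or 2 (0.0667) or green replicate 2 (0.05895) or 3 (0.0975). At E18.5 none of the 81 passed by limma in any of the 3 comparisons. An unadjusted p under 0.05 was reached by 5 for red against green, against 9.51% of all genes tested. It was reached by 4 for double-labelled against green (6.06%) and by 4 for double-labelled against red cells (6.14%). None passed in the test of stage dependence, with 6 at an unadjusted p under 0.05, against 9.34% of all genes tested.

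Between stages 23 of the 81 chromatin genes fell at E18.5 and 2 rose in red cells, against 14.9% and 12.7% of all genes tested. In green cells 31 fell and 5 rose, against 18.3% and 15.6%. These directions depended on the scale. Centred on array medians, 25 fell and 1 rose in red and 26 fell and 3 rose in green cells, but as deposited 3 fell and 40 rose in red and 4 fell and 40 rose in green cells. Over all genes, 2106 rose and 2480 fell in red cells and 2591 rose and 3052 fell in green cells, against 11865 and 176 in red and 11818 and 408 in green cells as deposited. The genes named next passed in the same direction on both scales, unless their deposited values are given. For a gene that rose, passing as deposited adds nothing, since that scale lifts the median gene.

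Of the 10 accessory subunits of PRC2, 3 fell and 2 rose in each colour. Lcor was lower at E18.5 (8.11 ± 0.05 against 9.48 ± 0.12 in red cells, -1.37, and -1.38 in green cells), with limma adjusted p of 5.3e-06 and 2.2e-06. Lcor shares its locus with a PRC2 accessory protein. The Polycomb-like subunit Mtf2 fell (-0.88 in red, limma adjusted p 0.0167, and -1.09 in green cells, 0.0036), as did the histone-binding subunit Rbbp4 (-0.62, 0.0208, and -0.70, 0.0086). In red cells Mtf2 was lost without E18.5 replicate 2 or 3 or E14.5 replicate 1 or 2 (limma adjusted p up to 0.0684) and Rbbp4 without E14.5 replicate 1 or 3 (up to 0.0608). As deposited neither passed in either colour, with Mtf2 at -0.31 in red and -0.45 in green and Rbbp4 at -0.0072 and -0.026. Rbbp7, a histone-binding subunit of PRC2 and of other complexes, rose at E18.5, to 8.86 ± 0.29 against 8.08 ± 0.04 in red cells (0.78, limma adjusted p 4.4e-04) and to 8.72 ± 0.05 against 7.77 ± 0.06 in green cells (0.94, 5.2e-05). Phf19 rose in red cells (0.26) and Phf1 in green cells (0.48), also Polycomb-like subunits. Phf19 was lost without E18.5 red replicate 2 or any one E14.5 red array (limma adjusted p up to 0.0781), and Phf1 without any one E18.5 green array or E14.5 green replicate 1 or 3 (up to 0.121). Of 19 subunits of PRC1, the second Polycomb complex, 2 fell and none rose in red cells and 2 fell and 1 rose in green cells, the riser being Rybp (0.59, limma adjusted p 0.0202). Rybp was lost without E18.5 green replicate 1 or 2 or E14.5 green replicate 2 or 3 (up to 0.0762), and also with arrays centred on their median.

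Of 17 other demethylases, 5 fell in red and 11 in green cells, and 1 rose in green cells. Kdm5a, which removes an activating mark, fell most among those named, to 6.30 ± 0.33 against 7.95 ± 0.05 in red cells (-1.65, limma adjusted p 1.7e-05) and to 6.66 ± 0.05 against 8.20 ± 0.16 in green cells (-1.54, 1.3e-05). The riser was Kdm4d (0.39 in green cells). Of 10 CoREST and REST genes 5 fell in each colour and Zmym3 rose in green cells (0.40). Rcor2 fell to 6.27 ± 0.17 against 7.38 ± 0.18 in red cells (-1.10, limma adjusted p 6.9e-05) and to 6.30 ± 0.21 against 8.17 ± 0.12 in green cells (-1.87, 3.1e-07). Of 19 histone H3 methyltransferase genes outside PRC2, 5 fell in red and 8 in green cells and none rose, with Kmt2c at -0.96 in green cells (limma adjusted p 5.0e-04). Of 6 genes of the H2A deubiquitinase complex 3 fell in red and 2 in green cells.

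**Figure D5:**
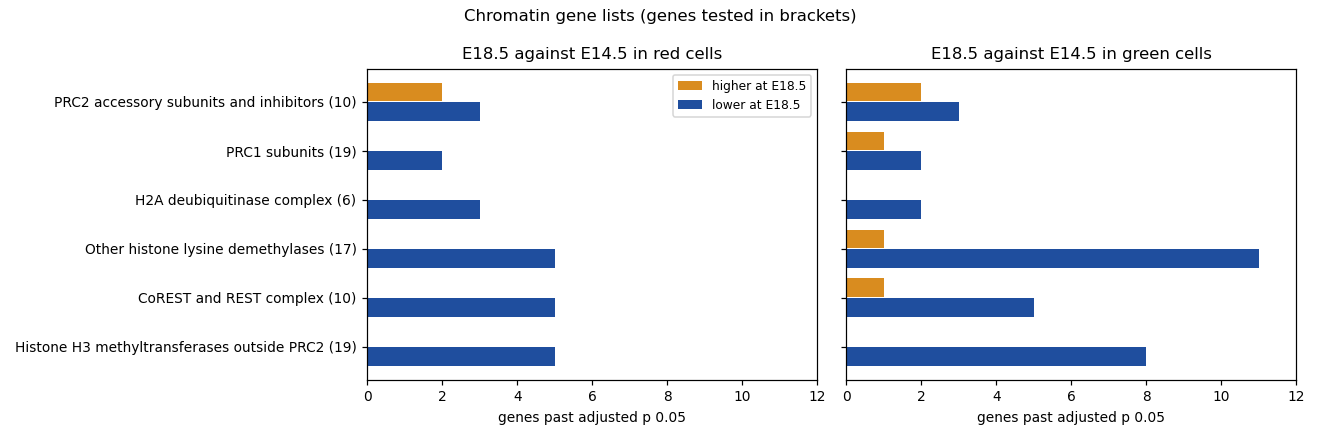
Number of genes past an adjusted p of 0.05 (x axis) in 6 chromatin gene lists (y axis, genes tested in brackets) for E18.5 against E14.5 in red (left) and green cells (right) after quantile normalization. Most of those that passed were lower at E18.5, 23 of 25 in red and 31 of 36 in green cells, and this direction flips on the deposited scale, where 40 rose in each colour.

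Hox genes, classic targets of Polycomb repression, stayed dim. The low-signal filter was passed by 16 of the 36 measured, and the mean level of these was 5.30 to 5.41 in the 5 groups. At E18.5 3 rose and 3 fell in red cells and 2 rose and 3 fell in green cells, while 12.7% of all genes tested rose and 14.9% fell in red and 15.6% rose and 18.3% fell in green cells. The median Hox difference was -0.021 in red and -0.029 in green cells, against -0.034 and -0.030 over all genes. Hoxb5 fell by 0.57 in red (limma adjusted p 0.0013) and 0.66 in green cells (2.5e-04), Hoxc9 by 0.46 (0.0020) and 0.43 (0.0021) and Hoxb9 by 0.38 (0.0171) and 0.54 (0.0014). Hoxb9 in red cells was lost without E18.5 replicate 2 or 3 or E14.5 replicate 1 or 3 (limma adjusted p up to 0.0680). None of these falls passed as deposited, where the 3 genes read 0.11, 0.19 and 0.23 in red and -0.030, 0.18 and 0.034 in green cells. Hoxd12 rose in both (0.29 in red, limma adjusted p 0.0235, and 0.34 in green cells, 0.0080), as did Hoxb1 (0.38 and 0.47, 0.0368 and 0.0104), while Hoxd8 rose in red cells (0.49, 0.0196). In red cells Hoxd12 was lost without E18.5 replicate 2 or E14.5 replicate 1 or 2 (limma adjusted p up to 0.0867), Hoxb1 without E18.5 replicate 1 or any one E14.5 array (up to 0.128), and Hoxd8 without replicate 2 of either stage (up to 0.0780). On the deposited scale no Hox gene fell. No Hox gene passed between populations of either stage by limma. Only in E18.5 double-labelled against green cells did any reach an unadjusted p under 0.05, namely 2, against 6.06% of all genes tested.

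Cell cycle genes fell between stages too, 9 of 22 in red and 15 in green cells, with 1 riser in green cells, Ccne1 (0.37), which was lost without any one E18.5 green array or E14.5 green replicate 2 or 3 (limma adjusted p up to 0.151). As deposited 1 fell and 8 rose in red and 7 fell and 7 rose in green cells. Named on both scales were Mcm7 (-1.21) in red and Cdk1 (-1.73), Mki67 (-1.84), Ccnb2 (-1.46) and Top2a (-1.80) in green cells. The mean level of the list was 5.66 to 5.78, 5.57 to 5.78 and 5.74 to 5.80 in E18.5 double-labelled, red and green cells and 5.94 to 6.06 and 6.42 to 6.59 in E14.5 red and green cells. Of 14 progenitor genes 5 fell and 2 rose in red cells and 7 fell in green cells, among them Prom1 (-1.20 and -2.16) and the proneural factor Neurog2 (-1.25 and -1.82) in both. Hes1 (0.81) and Fabp7 (1.33), genes of radial glia, rose in red cells, and Fabp7 was lost without E18.5 red replicate 1 or E14.5 red replicate 2 (limma adjusted p up to 0.0921). As deposited 2 progenitor genes fell and 7 rose in red and 3 fell and 7 rose in green cells. The part of these cell states in the levels of the 10 genes was not tested.

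Ezh2, Kdm7a and Phf21b, chosen for a shared fall between stages, were compared in their course over the arrays. With each gene centred on its own mean, Kdm7a and Phf21b differed by a root mean square of 0.29 over the 15 arrays, and Phf21b and Ezh2 by 0.29. Ezh2 and Kdm7a were further apart, and neither was among the 5 genes nearest to the other. Neighbours were sought among the genes tested, leaving out by name predicted genes, clones, small RNAs, pseudogenes, ribosomal protein genes and olfactory, vomeronasal and antigen receptor genes. Among the genes kept, Cdc14a, which encodes a phosphatase, was nearest to all 3, at 0.20 from Ezh2, 0.22 from Kdm7a and 0.25 from Phf21b. Next to Ezh2 came Rcc2 (0.22), Dmrtb1 (0.24), Cemip2 (0.24) and the histone variant gene H2az2 (0.25). Beside the members, Kdm7a was next to Cnn3 (0.31), Rnf122 (0.33) and Igfbpl1 (0.33), and Phf21b to the RNA-binding factor Igf2bp3 (0.31) and Thsd7a (0.31). Among the 10 genes, Eed was nearest to Phf8 (0.20), Kdm6b to Phf21a (0.19) and Suz12 to Kdm1a (0.19). Ezh1 had no member nearer than 0.38, more than its own SD over the arrays of 0.29. For Kdm1a, too, the distance of 0.19 to Suz12 was more than its own SD of 0.14. The 15 arrays share the difference between stages, so these distances describe the arrays and carry no test.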

How the data were processed

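Values are the log2 signals per array row that the authors deposited for 15 arrays, made per the submitters' processing notes in Affymetrix Expression Console (version and algorithm not given in the sources used here). Of 33794 rows, 23521 named 1 gene, 1814 several and 8459 none, by the platform annotation. Entrez identifiers of 23328 matched RefSeq (GRCm38.p6), which changed 0 symbols. Per gene the row with the highest mean was used, 22180 genes in all. All arrays were quantile normalized together, and genes in the dimmest 25% by mean signal, below 5.06, were dropped. The remaining 16635 were fitted in R 4.3.3 with limma 3.58.1 as 5 group means, with two-sided moderated tests adjusted over all genes by Benjamini and Hochberg at 0.05. The code was tested on simulated data. Plots used matplotlib 3.10.9 under Python 3.11.15. No depth applies to arrays, and their number limits the precision.

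The 10 genes and all lists were chosen with earlier results of these data known. Named were the 10 genes and up to 4 list genes per direction by smallest adjusted p. With them were named the 5 genes nearest to each of Ezh2, Kdm7a and Phf21b among those kept by gene name. After the values were seen, list genes named between stages were narrowed to those past the threshold in 1 direction both after quantile normalization and as deposited, except in the PRC2 accessory and Hox lists, and marker genes outside the rule and the promoter motifs were chosen. The 18 lists were PRC2 accessory subunits, PRC1, the H2A deubiquitinase complex, other demethylases, CoREST and REST, H3 methyltransferases, Hox, cell cycle, progenitors, thalamic, pan-neuronal, astrocyte, oligodendrocyte, microglial, endothelial, erythroid, meningeal and sex-linked genes. RefSeq start regions were found for 9 of the 10 genes, all but Kdm6b.

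Arrays of 1 replicate number were checked for pairing by the correlation of their deviations from group means. For E18.5 double-labelled and red arrays these were 0.58, 0.46 and 0.42, which pairs them from the data, not from the labels. The share of identical values between any 2 arrays was at most 5.15%. Alternatives were the deposited values, array medians, no filter, the mean of a gene's rows, the arrays of 1 stage, leaving out the narrow-range arrays or each array, and a replicate block.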

Additional observations from a re-analysis of the deposited data

Results flagged for a closer look

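The red-green difference depended on stage for 10 list genes by the test of that dependence (limma, adjusted over all genes), and the 8 with the smallest adjusted p, at most 4 a list and direction, are given as E18.5 minus E14.5. Of the cell cycle genes, Top2a changed by 2.02 (0.080 at E18.5 and -1.94 at E14.5), Cdk1 by 1.18 (-0.070 and -1.25), Mki67 by 1.51 (0.35 and -1.17) and Kif11 by 0.89 (-0.036 and -0.92). Of the progenitor genes, Prom1 changed by 0.96 (0.025 and -0.93) and Fabp7 by 2.55 (1.26 and -1.29). Kif11 was lost without E14.5 green replicate 2 or 3 (limma adjusted p up to 0.0535). Fabp7 was lost without any one of the 12 red and green arrays but E18.5 red replicate 3 and E18.5 green replicate 2 (0.0158 to 0.124). The homeodomain factor Prox1 changed by -1.77 (-0.85 at E18.5 and 0.92 at E14.5), and the embryonic globin Hbb-y by -1.42 (0.021 and 1.44). None of the 10 Polycomb and demethylase genes is among them.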

How the results depend on the processing

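Over 268 results and 2542 alternative values, 2301 stayed the same, 130 moved, 100 no longer passed, 2 newly passed and 9 reversed. A tested gene stayed the same if it kept its side of the threshold and, where it passed, its direction. A count did so within 1.5 times, and an untested value within the spread between replicates. Sign changes of tested genes that passed in neither setting are not counted as reversals. One was Ezh1 in E18.5 red against green cells, at -0.038 with all arrays and 0.034 without the narrow-range arrays. The reversals were stage differences as deposited, where the median gene stands higher at E18.5: Hoxb5 at 0.11, Hoxc9 at 0.19 and Hoxb9 at 0.23 in red, Hoxb9 at 0.034 and Hoxc9 at 0.18 in green, Eed at 0.064 in red and 0.094 in green, Phf8 at 0.15 in red and Kdm1a at 0.44 in green cells. As deposited Ezh2 read -1.22 in red and -1.22 in green, Kdm7a -1.40 and -2.01 and Phf21b -1.11 and -2.06, 12041 genes passed between stages in red and 12226 in green cells. With arrays centred on their median Phf21b read -2.68 in green cells. With only the arrays of 1 stage, E18.5 red against green had 13 genes, double-labelled against green 0, double-labelled against red 4 and E14.5 red against green 1448. Without the narrow-range arrays these counts were 222, 30, 35 and 1538, and stage dependence had 470. With no filter double-labelled against green had 0. For these counts the cause was not tested.

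With a replicate block, E18.5 red against green had 235 genes, double-labelled against green 14 and stage dependence 313, with 1 member, Phf21b (limma adjusted p 0.0418). The block changed no other member's call. Correlations of same-numbered deviations were 0.44, 0.38 and 0.092 for E18.5 red and green. They were 0.34, 0.38 and 0.088 for double-labelled and green, and 0.064, 0.21 and 0.26 for E14.5 red and green. In 23 of 24 checks an array correlated best with its own number, and sex-linked genes set E14.5 replicate 2 apart in both colours. The labels do not pair these arrays, and the main fits treat same-numbered arrays as independent. Whether they share embryos cannot be told from the sources used here.

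Leaving out single arrays gave 46 to 159 genes for E18.5 red against green, 0 to 5 for double-labelled against green, 10 to 49 for double-labelled against red, 300 to 598 for E14.5 red against green with 0 to 1 members, and 100 to 241 for stage dependence. It gave 3417 to 4824 for the stages in red and 4305 to 4685 in green cells. Ezh2 ranged over -1.97 to -1.67 in red and -1.86 to -1.78 in green, Kdm7a over -2.17 to -2.02 and -2.71 to -2.51 and Phf21b over -1.89 to -1.60 and -2.65 to -2.60. Hox levels near the dim end of the arrays limit what their signals can show.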

Other observations

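Some sex-linked genes varied between replicates of 1 group. Kdm5d, a Y-linked demethylase, read 7.68 in E14.5 red and 7.94 in E14.5 green cells of replicate 2, against 6.09 to 7.06 in both colours of replicates 1 and 3. Its E18.5 arrays read 5.80 to 6.85. Uty, the Y-linked relative of Kdm6a, was likewise highest in replicate 2 at E14.5, at 6.86 in red and 7.03 in green cells. Kdm6a itself, which escapes X inactivation, did not stand apart there, at 7.73 in red and 8.02 in green cells, against 7.68 to 8.08 in replicates 1 and 3.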
